A study of Mus musculus with 14 samples.

Results

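The genes described here are 10 regulators and markers of the first lineages that leave the pluripotent state: Gata4, Gata6, Sox17, Sox7, Foxa2, Hnf4a and Afp on the endoderm side, and Cdx2, Elf5 and Tfap2c on the trophoblast side. They were chosen by name from 21883 protein-coding genes with mm10 RefSeq coordinates, and all 10 were found. Every region listed within a gene or 20 kb on either side was collected from 7 peak lists of chromatin immunoprecipitation followed by sequencing (ChIP-seq). The cells were E14 mouse embryonic stem cells, grown on gelatin with LIF and kinase inhibitors. They were exposed for 6 h to 1 µM doxorubicin, which traps topoisomerase II on broken DNA, or to DMSO as vehicle, followed by 6 h without drug. Acetylation of histone H3 at lysine 27 (H3K27ac), found at enhancers and promoters in use, and H3K9me3, typical of silenced heterochromatin, each have a vehicle and a doxorubicin list. p53 carrying an HA epitope was precipitated through the epitope, and untagged cells served as its control. The input is chromatin of doxorubicin-treated cells. For the HA libraries the titles name no treatment, and the sources used here do not say how the tag was introduced or whether the tagged line is 1 clone.

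In the early embryo GATA6 and GATA4 switch on the primitive endoderm programme, with SOX17 and SOX7 acting beside them. FOXA2 and HNF4A act later in definitive endoderm, liver and visceral endoderm, and Afp encodes alpha-fetoprotein, a secreted product of visceral endoderm and fetal liver. CDX2, ELF5 and TFAP2C (AP-2 gamma) maintain trophoblast stem cells. Tfap2c is also used in naive embryonic stem cells and in germ cells. Gata4, Gata6, Sox17, Foxa2 and Cdx2 are known Polycomb targets in pluripotent cells, and Elf5 is kept silent there by DNA methylation.

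Each group of 2 libraries is 1 list called on the pooled reads. The 2 libraries of the p53 list share 1 replicate number in their titles, so whether they are separate replicates is not known. There is no replicate check, and no p-value is given. Levels are the pileup at a summit, that is the number of fragments covering it, given per 1000000 fragments of the list (FPM). Without duplicates the lists rest on 14402634 to 20647895 fragments for the histone marks and the input, 45238471 for p53 and 49588950 for untagged HA. Ratios carry exact 95% binomial (Clopper-Pearson) intervals on the fragment counts, which cover counting error only. The smallest summit in the H3K27ac lists was 9 fragments (0.436 FPM) in vehicle and 8 (0.470 FPM) in doxorubicin, so a gene without a region may still carry the mark below that level. Over all 58482 vehicle H3K27ac regions that were also listed in doxorubicin the median ratio of doxorubicin to vehicle was 1.17, a shift of 0.23 on the log2 scale, and single ratios are to be read against it. In a culture of many cells, more cells with the mark and more mark per cell cannot be told apart.

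As a check of the cell type, the windows of 10 of 10 embryonic stem cell markers, such as Pou5f1, Sox2, Nanog, Klf4 and Esrrb, held H3K27ac in both treatments. The median of their highest summits was 6.88 FPM in vehicle and 5.93 in doxorubicin. The endoderm and trophoblast regulators with a region had medians of their highest summits of 0.896 FPM in vehicle and 1.12 in doxorubicin. These medians are over 8 and 7 genes that are not all the same. The Tfap2c window, at 6.49 and 6.34 FPM, was at the level of the stem cell markers. These Tfap2c summits lay 19272 bp (vehicle) and 9664 bp (doxorubicin) beyond the upper gene end. Inside Tfap2c the highest summits were 1.45 FPM in vehicle and 1.70 in doxorubicin. Of 6 fibroblast markers, 3 had a region in vehicle and 5 in doxorubicin, with medians of 1.31 and 0.939 FPM. Col1a1 had 2.37 FPM in vehicle and 2.05 in doxorubicin, Fbn1 1.31 and 0.939, and Thy1 0.775 and 0.939. Twist2 (0.822 FPM) and Snai2 (0.470 FPM) were listed in doxorubicin only, and Col1a2 in neither list. The part of other cell types in the results below was not tested.

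H3K27ac was listed at most of the 10 genes, and the genes differed in level and in the treatment they were listed in. In both treatments the highest summit of the Tfap2c window, outside the gene, lay above the median of all genes with a region. This median was 1.84 FPM in vehicle and 1.94 in doxorubicin. The highest summit of Hnf4a lay above it in doxorubicin, and the others lay below. Gata4, Gata6, Sox17, Sox7, Hnf4a and Tfap2c had regions in both lists, Foxa2 and Elf5 in vehicle only, Cdx2 in doxorubicin only and Afp in neither. The mark was thus listed at 8 of 10 genes in vehicle and 7 of 10 in doxorubicin, where 77.1% and 82.0% of all protein-coding genes had a region. Vehicle-only genes made up 1.54% of all genes, doxorubicin-only genes 6.51% and genes in neither list 16.4%. The calls at Foxa2, Elf5 and Cdx2 rest on single regions of 11, 12 and 10 fragments, close to the smallest listed. At a −log10 q of at least 5 the mark was listed at 5 genes in vehicle and 4 in doxorubicin. The share of all genes at this threshold is not given, so whether these genes lose more calls than others is not known.

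**Figure D1:**
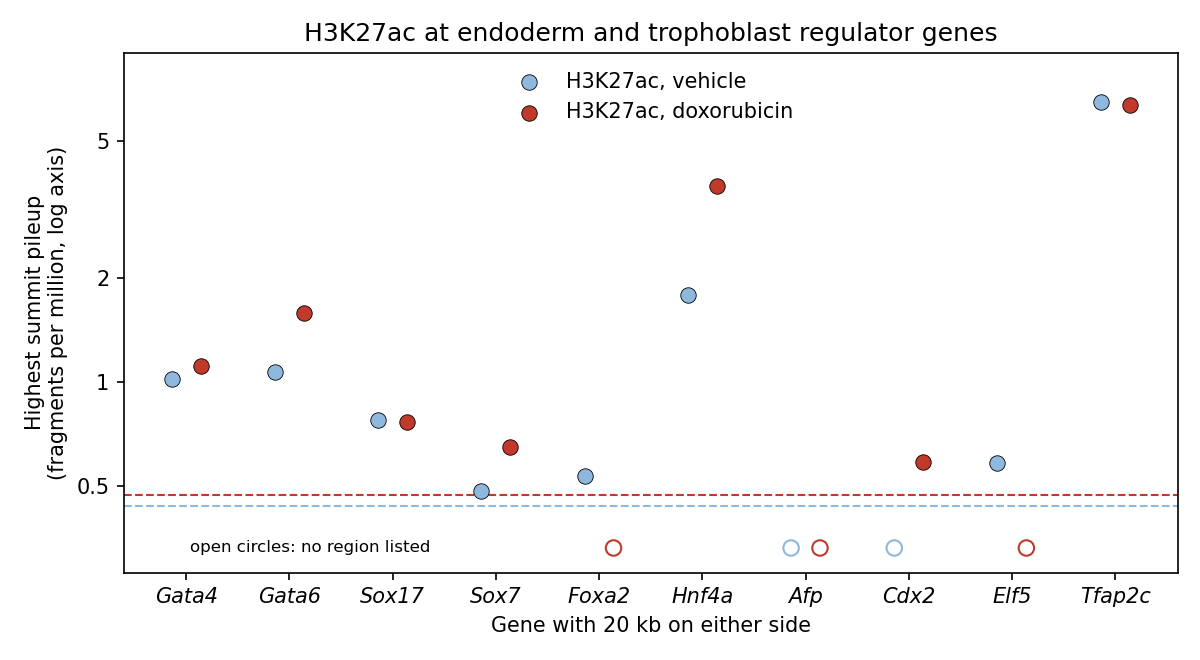
The vertical log axis gives the highest H3K27ac summit pileup in each gene with 20 kb on either side, in FPM, for the vehicle list (blue) and the doxorubicin list (red). Dashed lines are the smallest summit of each list, and open circles at the bottom are genes with no region listed. Tfap2c and Hnf4a stand above the other genes, and Foxa2, Sox7, Cdx2 and Elf5 lie close to the dashed lines.

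By highest summit in vehicle the order was Tfap2c (6.49 FPM), Hnf4a (1.79), Gata6 (1.07), Gata4 (1.02), Sox17 (0.775), Elf5 (0.581), Foxa2 (0.533) and Sox7 (0.484). Gata6 and Gata4 differed by 1 fragment, and Elf5, Foxa2 and Sox7 by 1 fragment from one to the next, so their order is not resolved. In doxorubicin the order was Tfap2c (6.34), Hnf4a (3.70), Gata6 (1.58), Gata4 (1.12), Sox17 (0.763), Sox7 (0.646) and Cdx2 (0.587). The highest summit of a window need not lie in the gene. At Tfap2c and Gata4 it lay outside the gene in both treatments, and at Gata6, Sox17 and Sox7 it did in vehicle. Of the 6 genes listed in both treatments, Hnf4a was at least 1.5-fold higher in doxorubicin and none was 1.5-fold lower. Over all 16531 genes listed in both, 24.0% were that much higher and 9.89% that much lower, and the median ratio was 1.21 for the 6 genes and 1.07 for all.

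Together the 10 windows held 28 vehicle and 37 doxorubicin regions of H3K27ac. Of the doxorubicin regions 20 (54.1%) overlapped no vehicle region, against 46.5% over the whole list, and of the vehicle regions 9 (32.1%) overlapped no doxorubicin region, against 28.8%. With the lists cut to equal length by −log10 q, the windows held 28 vehicle and 27 doxorubicin regions, 10 and 11 of them in 1 treatment only, so the excess in doxorubicin was not seen. Shares over the whole cut lists are not given. As deposited, more regions were listed in doxorubicin at Gata4, Gata6, Sox7, Hnf4a and Cdx2, fewer at Sox17, Foxa2, Elf5 and Tfap2c, while 55.7% of all genes had more in doxorubicin. Of the 20 doxorubicin-only regions 15 had summits between the gene ends, as had 21 of all 37 doxorubicin regions and 4 of the 9 vehicle-only ones. The share over all genes was not computed. Gata4 and Gata6, with 4 and 5 of the 15, fill 72799 of 112799 bp and 33127 of 73127 bp of their windows. The pileup of the doxorubicin-only regions was low, and 5 of the 20, of which 3 were at Gata6, reached a −log10 q of 5. The share of all doxorubicin-only regions that reach it is not given.

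Gata6, which encodes the GATA factor that initiates primitive endoderm, had the most doxorubicin-only regions inside a gene, 5, and no vehicle region there. The gene lies on chromosome 18 from 11052510 to 11085636. In vehicle all 3 regions lay below the lower-coordinate end of the gene, with 13, 22 and 12 fragments (0.630, 1.07 and 0.581 FPM), and 0 had a summit within it. In doxorubicin the regions from 11040125 to 11041140 (18 fragments, 1.06 FPM) and from 11048367 to 11048646 (8 fragments) overlapped 2 of these, the second of them close to Gata6os, the antisense RNA gene. The other 5 doxorubicin regions lay inside Gata6 and overlapped no vehicle region. From the lower to the upper end they held 13, 10, 18, 14 and 27 fragments, or 0.763, 0.587, 1.06, 0.822 and 1.58 FPM. The last, from 11081804 to 11084561, was 2758 bp wide with a −log10 q of 17.0 and contained a p53 region. The highest summit of the whole window was 1.49-fold higher in doxorubicin (interval 0.816 to 2.74), which does not exceed counting error, and the 2 summits compared lay at different places. Within 10 kb of the gene the ratio was 2.73, and at the doxorubicin summit within 100 bp of the highest vehicle summit it was 0.826.

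Gata4, the related factor that acts after Gata6, also had several weak regions listed in doxorubicin only. It spans 63198914 to 63271712 on chromosome 14, and 6 of its 8 doxorubicin regions overlapped no vehicle region. Of these 6, 4 had summits in the gene, with 9, 12, 12 and 13 fragments (0.528 to 0.763 FPM). The others, in or within 1 kb of the neighbouring gene Neil2, held 15 and 9 fragments (0.880 and 0.528 FPM). That of 15 fragments, with a −log10 q of 6.05, was the only one of the 6 to reach 5. The region of 13 fragments, from 63269399 to 63269916, overlapped a p53 region 1785 bp from the upper gene end. Next to it, 558 bp from that end, a vehicle region held 11 fragments (0.533 FPM), and the doxorubicin region overlapping it also held 11 (0.646 FPM), a ratio of 1.21 (0.477 to 3.08). The highest summits of the window, 21 fragments in vehicle and 19 in doxorubicin (ratio 1.10, interval 0.558 to 2.14), belonged to a region in or within 1 kb of Neil2, a DNA glycosylase gene next to Gata4. The untagged HA ChIP, which had regions at 7.49% of all genes, had its only region in the 10 windows at this Neil2 site, with a fold enrichment of 3.35, and the p53 list had none there.

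Sox17 and Sox7, paralogous SRY-box factors of primitive and definitive endoderm, had few regions. At Sox17, on chromosome 1 from 4490928 to 4497426, 3 vehicle regions held 16, 11 and 11 fragments (0.775, 0.533 and 0.533 FPM) and 1 doxorubicin region held 13 (0.763 FPM). None of the 4 overlapped. The vehicle region of 16 fragments lay near the edge of the window, and the ratio of the highest summits was 0.985 (0.436 to 2.18). At Sox7, on chromosome 14 from 63943706 to 63950732, 1 vehicle region of 10 fragments (0.484 FPM) overlapped a doxorubicin region of 11 (0.646 FPM). The ratio was 1.33 (0.514 to 3.50). A further 2 doxorubicin regions of 10 and 11 fragments had no vehicle counterpart, 1 of them inside the gene. Counting error at Sox17 and Sox7 leaves sizeable changes in either direction unresolved at this depth.

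Foxa2, the forkhead pioneer factor of definitive endoderm, lies on chromosome 2 from 148042877 to 148046969. It had 1 region over all 7 lists, a vehicle H3K27ac region of 423 bp with 11 fragments (0.533 FPM) from 148044023 to 148044445. Its summit lay 1288 bp from the nearest of 3 annotated starts. Afp, on chromosome 5 from 90490714 to 90508907, had no region in any histone list, and the edge of the nearest vehicle H3K27ac region lay 49979 bp from its start. The only region in its window was a p53 region, described below.

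Hnf4a, a nuclear receptor of liver and visceral endoderm, had the highest region of the endoderm genes, and that region was higher after doxorubicin. It lies on chromosome 2 from 163506811 to 163572907 and has starts at 163506857 and 163547155. The region between the 2 starts, from 163515391 to 163517616 in vehicle, held 37 fragments (1.79 FPM). In doxorubicin it ran from 163514719 to 163517879 and held 63 (3.70 FPM), and its width went from 2226 to 3161 bp. The ratio was 2.06 (1.35 to 3.19), or 1.76 when the lists are scaled by the median ratio of their shared regions. The same place held the strongest p53 region of the 10 genes. A weaker region from 163510157 to 163510882 held 13 fragments in vehicle and 17 in doxorubicin (ratio 1.58, interval 0.725 to 3.55). Only in doxorubicin were regions of 14, 10 and 9 fragments listed, the second beginning 49 bp past the first start. The vehicle list alone held a region of 11 fragments near R3hdml, a neighbouring gene. All H3K27ac summits inside Hnf4a also lie in or within 1 kb of Hnf4aos, a non-coding gene that overlaps it, so the regions cannot be assigned to one of them.

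Among the trophoblast genes Cdx2 and Elf5 were nearly empty. Cdx2, the caudal-type homeobox factor of trophectoderm, lies on chromosome 5 from 147300900 to 147307249 and had 1 region over all 7 lists, in doxorubicin H3K27ac. It was 311 bp wide with 10 fragments (0.587 FPM), and its summit lay 523 bp from the lower gene end, which is the far end from the start of this minus-strand gene. Elf5, an ETS factor of trophoblast stem cells, lies on chromosome 2 from 103412098 to 103450989. Its only region was in vehicle H3K27ac, 710 bp wide with 12 fragments (0.581 FPM), 11922 bp past the second of its 2 starts.

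Tfap2c, in contrast, carried 13 H3K27ac regions in the vehicle list and 11 in the doxorubicin list, which covered 21156 bp and 18961 bp of its 52945 bp window. The gene spans 172545678 to 172558622 on chromosome 2. At its lower end a vehicle region held 16 fragments (0.775 FPM) and the overlapping doxorubicin region also 16 (0.939 FPM). Inside the gene, a region from 172550632 to 172551862 held 30 fragments in vehicle and 29 in doxorubicin (ratio 1.17, interval 0.679 to 2.02). A further pair in the gene had 21 and 17 fragments, and the intervals of all 3 ratios include 1.

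The largest regions of the Tfap2c window lay above the gene, and their summits differed in how they compared between treatments. From 172565090 to 172571292 the vehicle region was 6203 bp wide with 92 fragments (4.46 FPM). The doxorubicin region there was 3803 bp wide with 108 fragments (6.34 FPM), a ratio of 1.42 (1.07 to 1.90). This holds for the top summit, since 4 other summits matched within 100 bp in the same region had ratios of 0.713 to 0.990, with intervals that include 1. A vehicle region of 12038 bp that begins at 172575151, at the long non-coding gene Gm36038, held 134 fragments (6.49 FPM). In doxorubicin it was listed as separate regions, of which the highest, beyond the 20 kb window, held 105 fragments (6.16 FPM), a ratio of 0.95 (0.728 to 1.24). The doxorubicin summit within 11 bp of the highest vehicle summit held 72 (4.23 FPM), 1.54-fold lower than in vehicle (1.14 to 2.07). The highest summits of the window thus lay at different places in the 2 lists, and their ratio was 0.977 (0.751 to 1.27). Comparing summits within 100 bp of each other was added after the data were seen. Of 25 such pairs at the 10 genes, 4 were at least 1.5-fold higher in doxorubicin and 2, both at this vehicle region, 1.5-fold lower. The Tfap2c window held 17 of the 25, and no share over all matched summits of the lists is given.

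**Figure D2:**
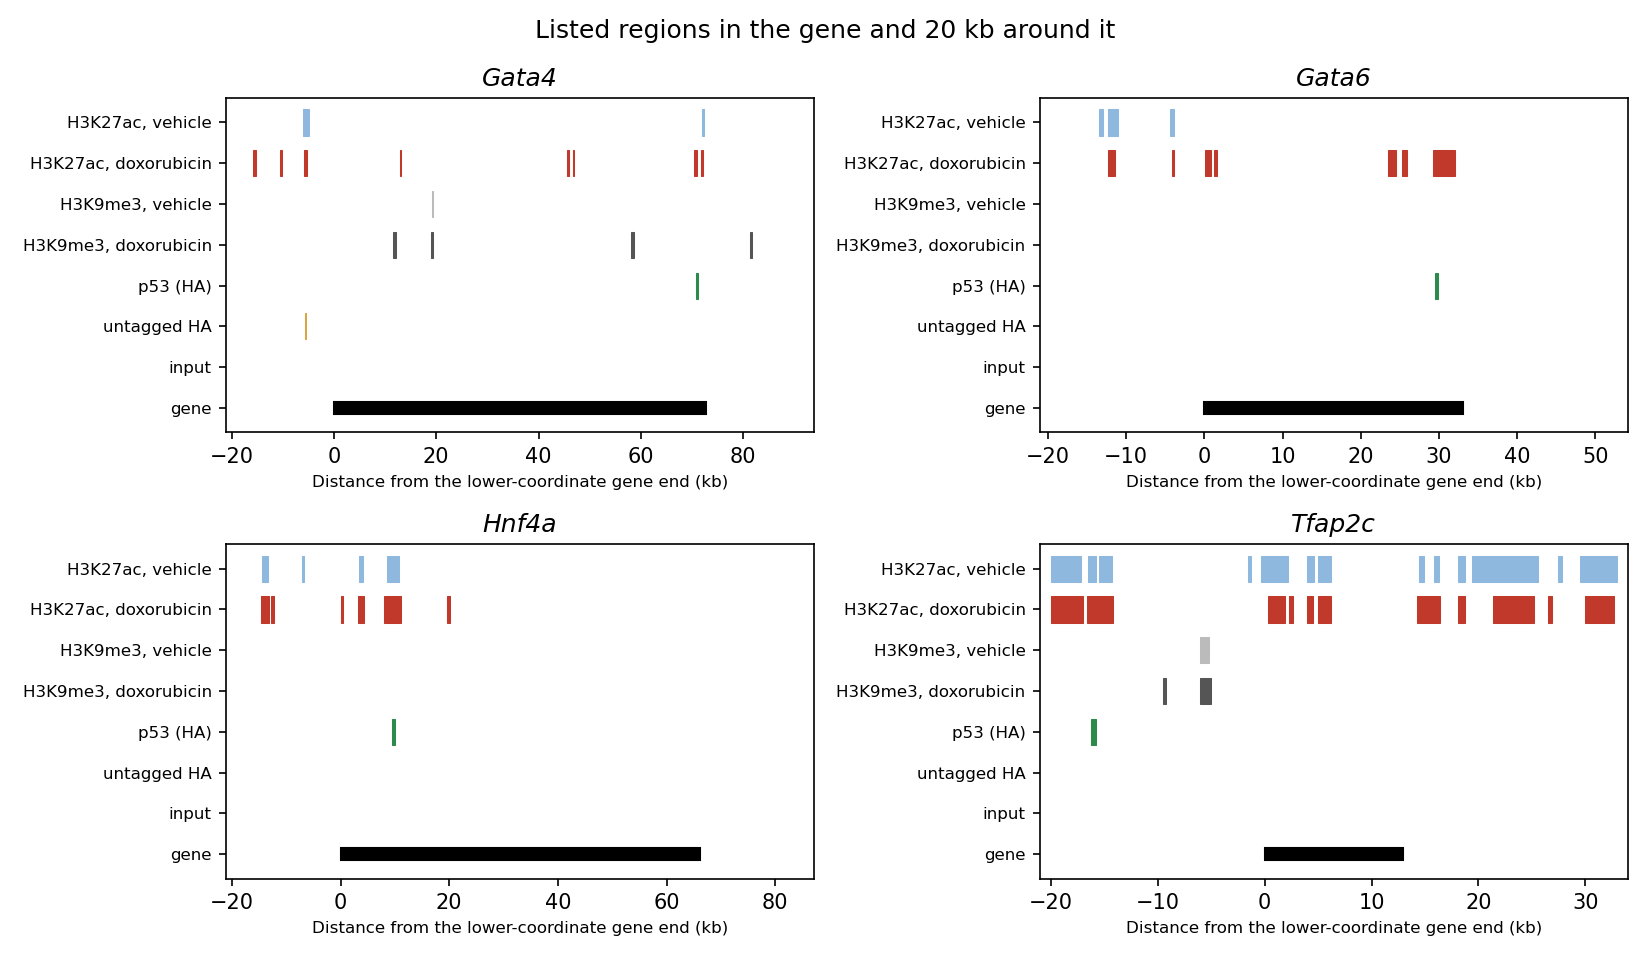
Each panel shows 1 gene with 20 kb on either side, with the distance from the lower-coordinate gene end in kb on the horizontal axis and 1 row for each of the 7 lists; bars are listed regions and the black bar is the gene. The 5 doxorubicin H3K27ac regions inside Gata6 have no vehicle counterpart, and the p53 regions of all 4 genes lie at doxorubicin H3K27ac regions.

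Below Tfap2c, vehicle regions from 172529108 to 172529931 and from 172530225 to 172531387 held 20 and 12 fragments (0.969 and 0.581 FPM). In doxorubicin both fell within 1 region from 172529030 to 172531507 with 34 fragments (2.00 FPM). The ratio to the first was 2.06 (1.15 to 3.78) and to the second 3.43 (1.73 to 7.28). The doxorubicin summit, at 172529878, lay within the first vehicle region, and the second had its summit at 172530846. The second ratio thus compares different places. The first of the vehicle regions overlapped a p53 region.

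Over all 10 genes, 19 vehicle regions were also listed in doxorubicin. Of these 5, of which 2 at Tfap2c meet the same doxorubicin region, were at least 1.5-fold higher in doxorubicin, against 30.6% of such regions in the whole list, and none was 1.5-fold lower, against 9.75%. The interval excluded a ratio of 1 at 4 of the 19, the one at Hnf4a and 3 at Tfap2c, and in all 4 the doxorubicin value was the higher. The intervals at Hnf4a (1.35 to 3.19) and at the Tfap2c pair with 1.73 to 7.28 also lay above 1.17, the median of all shared regions. That Tfap2c pair compares summits at different places and shares its doxorubicin value with the pair of 1.15 to 3.78. The other Tfap2c intervals, 1.07 to 1.90 and 1.15 to 3.78, included 1.17. The regions of Gata4, Gata6 and Sox7 listed in both treatments had ratios of 0.808 to 1.33, with intervals that include 1.

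**Figure D3:**
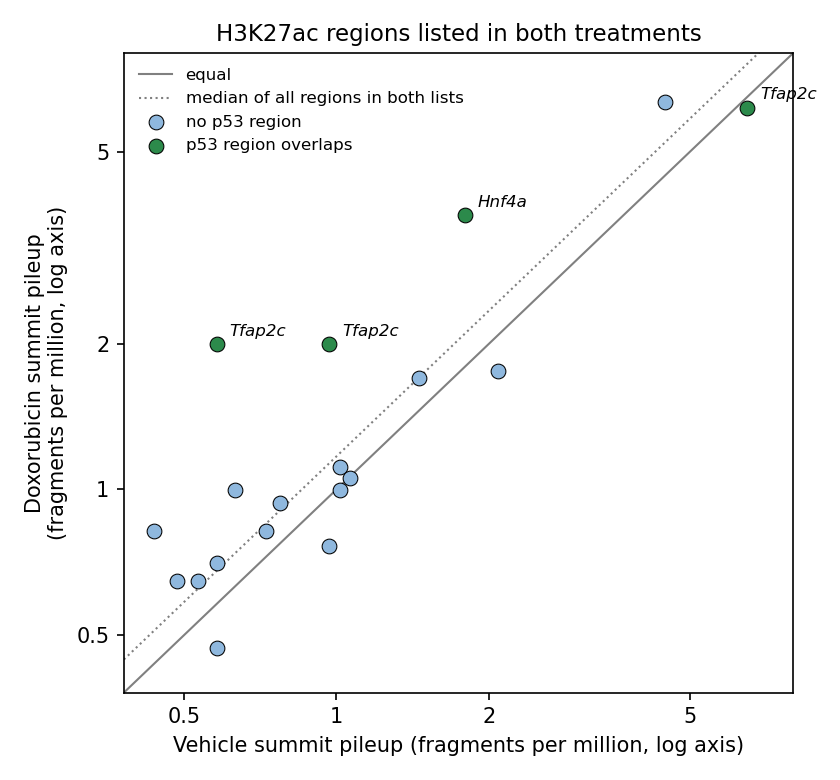
Each point is 1 of the 19 vehicle H3K27ac regions at the 10 genes that overlap a doxorubicin region, with the vehicle summit pileup on the horizontal and the doxorubicin summit pileup on the vertical log axis, in FPM. The solid line marks equal values and the dotted line the median ratio of all shared regions, 1.17. Green points overlap a p53 region in either treatment's extent, and 3 of these 4 lie above the lines. Those above the lines at Tfap2c meet the same doxorubicin region and the same p53 region. The fourth, at the 12038 bp vehicle region beside Tfap2c, where the p53 region is beyond the 20 kb window, lies below the dotted line.

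p53 regions were listed in the windows of 5 of the 10 genes, Gata4, Gata6, Hnf4a, Afp and Tfap2c, with 1 region each, where 32.3% of all genes had one. p53 is the transcription factor stabilised by DNA damage. None of the 5 overlapped an untagged HA or input region, and the input list, with regions at 2.57% of all genes, had none in the 10 windows. At Hnf4a the region ran from 163516230 to 163516787 and was covered by 410 fragments at its summit (9.06 FPM), with a fold enrichment of 16.8 in the authors' list. At Tfap2c, 16090 bp below the gene from 172529405 to 172529865, it was covered by 216 fragments (4.77 FPM), with a fold enrichment of 10.0. At Gata6 the region from 11082067 to 11082345 had 108 fragments (2.39 FPM) and a fold enrichment of 7.13, and its summit lay 3401 bp from the upper gene end. The region at Gata4, from 63269702 to 63270086, had 92 fragments (2.03 FPM) and a fold enrichment of 4.96. That at Afp, from 90508934 to 90509202, had 88 fragments (1.95 FPM) and a fold enrichment of 5.84, with its summit 161 bp past the upper gene end. Among the 10857 p53 regions without an untagged or input region the median fold enrichment was 7.77, so the regions at Hnf4a and Tfap2c lay above it and those at Gata6, Gata4 and Afp below.

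H3K27ac at these p53 regions was listed in doxorubicin only or was higher in doxorubicin, except at Afp. At Gata4 (13 fragments) and Gata6 (27 fragments) the mark was listed in doxorubicin only, which was the case for 31.0% of the p53 regions of the genome. At Hnf4a and Tfap2c it was listed in both treatments, and the highest summit of the overlapping region was about 2.06-fold higher in doxorubicin at each. At Hnf4a these summits, at 163516075 in vehicle and 163515829 in doxorubicin, lay outside the p53 region itself. Of all p53 regions 40.7% had the mark in both lists, the median ratio there was 2.05, and 77.6% were at least 1.5-fold higher. At Afp the mark was in neither list, as at 27.8% of p53 regions. Of the 37 doxorubicin H3K27ac regions at the 10 genes, 4 overlapped a p53 region, against 7.11% of the whole list, and of the 20 doxorubicin-only ones 2 did, against 6.02%. Over H3K27ac regions listed in both treatments that overlap no p53 region the median ratio was 1.12.

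H3K9me3 was listed at 2 of the 10 genes in each treatment, Gata4 and Tfap2c, while 55.5% of all genes had a region in vehicle and 61.5% in doxorubicin. The other 8 genes had none, as had 35.8% of all genes, and 0 had the mark in 1 treatment only, against 8.72% for doxorubicin and 2.75% for vehicle. Both Gata4 and Tfap2c had more regions in doxorubicin, as had 32.2% of all genes. The highest summit at neither gene differed by 1.5-fold, where 24.4% of all genes with both were that much higher in doxorubicin and 1.75% that much lower. At Gata4 the vehicle list held 1 region of 10 fragments (0.625 FPM) inside the gene, and doxorubicin held 8 fragments there (0.555 FPM). A further 3 doxorubicin regions at Gata4 had 10, 11 and 10 fragments (0.694, 0.764 and 0.694 FPM). At Tfap2c a region below the gene, from 172539632 to 172540491, held 12 fragments in vehicle (0.750 FPM) and 16 in doxorubicin (1.11 FPM), a ratio of 1.48 (0.657 to 3.43). A second, of 13 fragments, was listed in doxorubicin only. Over all H3K9me3 regions in both lists the median ratio was 1.30. Of the 6 doxorubicin regions 4 had no vehicle counterpart, against 34.3% of the whole list, and of the 2 vehicle regions 0 lacked a doxorubicin counterpart, against 15.6%. Neither vehicle region was 1.5-fold higher or lower in doxorubicin, where 32.6% and 2.60% of all regions in both lists were. No H3K9me3 region here overlapped a p53 region.

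Start sites were examined for Foxa2, Hnf4a, Afp, Cdx2 and Elf5, the 5 genes matched in a RefSeq promoter table (GRCm38.p6, the assembly behind mm10). Of their 9 annotated starts, 0 had a region of any list over the 250 bases before the start, where 30.1% of 32851 promoters in the table overlapped H3K27ac in vehicle and 30.7% in doxorubicin. Sequences are shown for the gene whose first start lay next to a doxorubicin-only region (Hnf4a), for the trophoblast regulator whose only region lay at the far end of the gene (Cdx2) and for the one gene without any histone region (Afp). They hold the bases before the start that lie outside the annotated gene, 204 at Hnf4a and 250 at the others, 5′ to 3′ on the gene's strand, with CG dinucleotides in capitals.
Hnf4a, chr2:163506607-163506810, plus strand: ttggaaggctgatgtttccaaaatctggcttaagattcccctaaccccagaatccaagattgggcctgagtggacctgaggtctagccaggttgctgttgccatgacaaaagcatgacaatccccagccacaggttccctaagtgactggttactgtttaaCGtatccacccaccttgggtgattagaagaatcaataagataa
Cdx2, chr5:147307250-147307499, minus strand: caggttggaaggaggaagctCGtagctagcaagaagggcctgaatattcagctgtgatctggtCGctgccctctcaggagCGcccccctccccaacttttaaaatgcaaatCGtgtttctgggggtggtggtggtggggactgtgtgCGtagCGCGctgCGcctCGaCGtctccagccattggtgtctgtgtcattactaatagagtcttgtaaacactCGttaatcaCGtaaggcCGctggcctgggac
Afp, chr5:90490464-90490713, plus strand: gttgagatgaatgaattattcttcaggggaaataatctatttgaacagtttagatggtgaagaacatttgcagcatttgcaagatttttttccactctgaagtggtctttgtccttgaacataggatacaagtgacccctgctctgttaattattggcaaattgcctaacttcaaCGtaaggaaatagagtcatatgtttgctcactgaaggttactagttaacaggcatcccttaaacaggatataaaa

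Cdx2 held 13 CG dinucleotides in the 250 bases, against a median of 6 over the promoters of the table, and Afp held 1. Foxa2 held 13, 20 and 6 at its 3 starts, the last being the outermost. Hnf4a held 3 at the first start and 4 at the second, and Elf5 2 and 8. The letters TATAAA, searched on both strands, were found in the Afp sequence on the gene's strand, beginning 7 bases before the annotated start, and on the opposite strand at the innermost start of Foxa2. On the same strand 7.59% of all promoters held them and on either strand 12.4%. Both the CG-rich starts of Foxa2 and Cdx2 and the CG-poor starts of Afp and Hnf4a lacked a listed region.

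Further genes of both lineages were described from 2 lists of 18 endoderm and 13 trophoblast genes. Of the endoderm genes 15 had H3K27ac in vehicle and 16 in doxorubicin, against 77.1% and 82.0% of all genes. The added one was Foxa1, a forkhead factor close to Foxa2, with 0.704 FPM. Of the 15 listed in both treatments, 10 had a highest summit at least 1.5-fold higher in doxorubicin and 1 at least 1.5-fold lower. Their median ratio was 1.68. Over all genes listed in both, 24.0% were that much higher and 9.89% that much lower, with a median ratio of 1.07. Many of the endoderm genes start low. Among all genes whose highest vehicle summit was under 1 FPM, a background chosen after the values were seen, 48.8% were 1.5-fold higher. Of the endoderm genes, 9 were that low, and 9 of the 9 were 1.5-fold higher. The list was itself chosen with earlier results of these data known, so this count is a description and not a test. Of the trophoblast genes 1 was that low, and it was not 1.5-fold higher. Of the 10 regulators described above, 2 with regions in both lists were that low, Sox17 and Sox7, and 0 were 1.5-fold higher.

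The largest ratios in the endoderm list were at Gata5, a GATA factor of endoderm and heart (0.581 and 1.88 FPM, ratio 3.23), and Col4a1, which encodes a basement membrane collagen (0.581 and 1.64, ratio 2.83). Col4a1 and Col4a2 adjoin each other and share regions. Gsc, the organizer homeobox gene, went the other way, with 2.95 FPM in vehicle and 1.47 in doxorubicin (ratio 0.497), and Lama1, a laminin chain gene, had a ratio of 0.727. Of all 21883 genes 16531 had the mark in both treatments. Of the 13 trophoblast genes 12 did, with a median ratio of 0.983. In that list 1 gene was 1.5-fold higher, the homeobox gene Dlx3 (ratio 1.70, followed by Fgfr2 with 1.32), and 1 was 1.5-fold lower, Tead4, which acts upstream of Cdx2 (5.42 and 3.52 FPM, ratio 0.649, followed by Ets2 with 0.744). Among all genes listed in both treatments 24.0% were 1.5-fold higher and 9.89% were 1.5-fold lower. The untagged HA list held 2 regions in the Tead4 window. Plac1 had no region. For comparison, the median ratio of the 10 stem cell markers was 0.856, and the lowest was 0.528 at Zfp42.

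**Figure D4:**
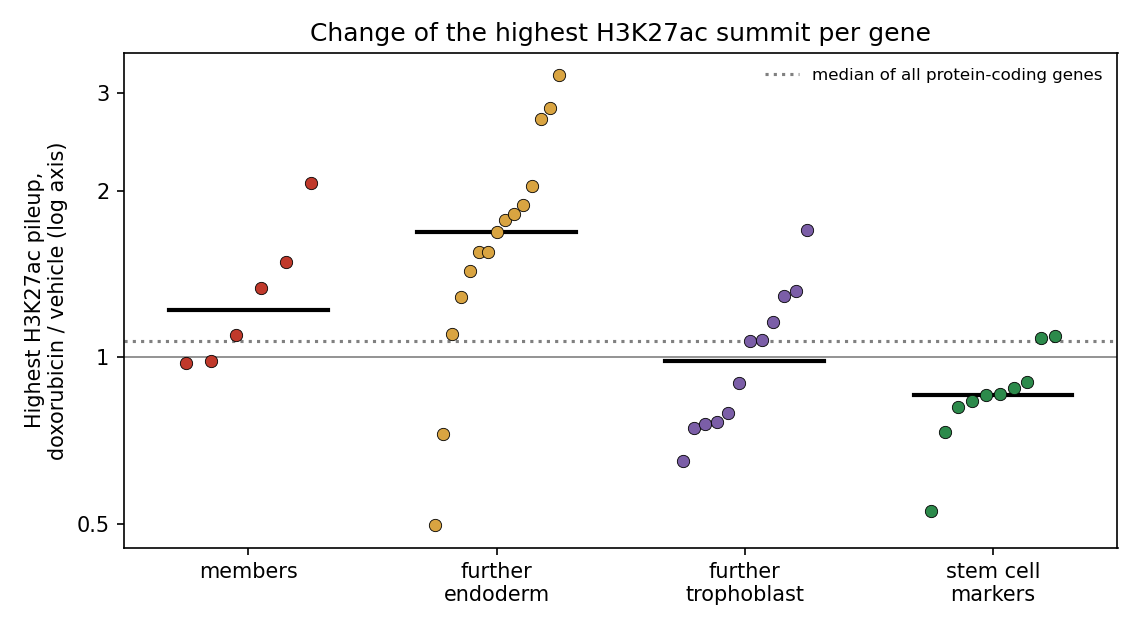
Each point is 1 gene with H3K27ac in both treatments, and the vertical log axis gives the ratio of its highest summit pileup (FPM) in doxorubicin to that in vehicle; black bars are medians of the regulators described here (members), of the 2 further lists and of the stem cell markers. The dotted line is the median of all protein-coding genes, 1.07, and the endoderm list has the highest median of the 4 lists, 1.68.

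p53 regions lay in the windows of 5 of the 18 endoderm genes (Pdgfra, Lama1, Col4a2, Foxa3 and Cubn). They also lay in those of 2 of the 13 trophoblast genes (Gata3 and Dlx3), while 32.3% of all genes had one. None of the 7 overlapped an untagged or input region. The strongest was at Cubn, which encodes the endocytic receptor cubilin of visceral endoderm, with a fold enrichment of 61.1. H3K27ac at these p53 regions was listed in doxorubicin only at Cubn (1.35 FPM), Gata3 (1.29) and Foxa3 (0.998). It was listed in both treatments at Dlx3, Col4a2, Pdgfra and Lama1, with ratios of 2.83, 2.25, 1.92 and 1.51. Among all p53 regions without an untagged or input region, 31.0% had the mark in doxorubicin only. A further 40.7% had it in both lists, with a median ratio of 2.05. The 2 lists were chosen with earlier results of these data known, and no test of them was run.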

How the data were processed

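Each of the 7 files is a list of peaks that the authors called on 2 pooled libraries. Bowtie2 2.2.6 is named in the submitters' processing notes, and the genome was mm10 plus 1 extra contig, per the file headers. MACS 2.2.5 was run on paired-end fragments at a q threshold of 0.05, keeping 1 fragment per position, per the file headers. The histone and input lists had no control. The input served as control of both HA lists, with a local background for p53 and a genome-wide one for the untagged cells, per the file headers, so their numbers of regions are not compared. The deposited signal is the fragment pileup at each summit, which MACS had scaled to the input depth in the 2 HA lists. The deposited fold enrichment is the ratio of pileup to background, and q values are deposited as −log10. Coordinates are 1-based as deposited.

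Summits of 1 interval were joined into 1 region with the values of its highest summit. Regions overlapping a gene or 20 kb around it were assigned to it, and regions sharing at least 1 bp counted as the same. Pileups were expressed per 1000000 fragments of the list (FPM), of the input for the HA lists. p53 fragments at a summit were recovered by undoing the scaling. Genes came from RefSeq (GRCm38.p6). Intervals on ratios are exact binomial. All 10 genes are named; of the further lists, those with H3K27ac in 1 treatment only, those with a p53 region and the 2 with the largest change in each direction, and, as examples chosen after their values were seen, Plac1 and markers. The members and lists were chosen with earlier results of these data known. Other genes were named where a summit lay within 1 kb of them. Overlap counting was tested on simulated data. Python 3.11.15, numpy 2.4.6, pandas 2.3.3, scipy 1.17.1 and matplotlib 3.10.9 were used. Alternatives covered thresholds, list length, overlap, joining, window, scaling and the value per gene. Matching summits within 100 bp, and the background of genes under 1 FPM in vehicle, were added after the data were seen.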

Additional observations from a re-analysis of the deposited data

How the results depend on the processing

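No paired analysis was possible because the 2 libraries of a group are merged in its list, which also kept single replicates from being left out. Weak regions set the counts. For the alternative counts below, shares over all genes or whole lists are not given. At a −log10 q of at least 5 the 10 windows held 13 vehicle and 17 doxorubicin H3K27ac regions, 2 and 6 of them in 1 treatment only, at 5 and 4 genes, and 0 vehicle and 2 doxorubicin H3K9me3 regions, both doxorubicin-only, at 0 and 1 gene. At a fold enrichment of at least 4 they held 14 and 21 H3K27ac regions, 2 and 9 in 1 treatment only, with 5 genes in vehicle, and 1 H3K9me3 region in vehicle, at 1 gene, and 3 in doxorubicin, 2 of them doxorubicin-only. At a pileup of at least 1 FPM they held 8 and 10 H3K27ac regions, 1 and 3 in 1 treatment only, at 4 genes each, and 0 and 1 H3K9me3 regions, the latter doxorubicin-only, at 0 and 1 gene. Equal list lengths left 28 vehicle and 27 doxorubicin H3K27ac regions, 10 and 11 of them in 1 treatment only, at 8 and 6 genes, and 3 doxorubicin H3K9me3 regions, 2 of them doxorubicin-only, and 1 vehicle-only. Within 50 kb there were 63 vehicle and 89 doxorubicin H3K27ac regions, 16 and 41 in 1 treatment only, 7 and 11 H3K9me3 regions at 6 and 5 genes, 1 of them vehicle-only, and 12 p53 regions. The number of genes whose H3K27ac was at least 1.5-fold higher in doxorubicin was 1 as reported, 2 within 10 kb, 4 within 50 kb and 4 by the sum over regions, with ratios of 3.79 at Gata4, 2.78 at Gata6, 2.08 at Hnf4a and 3.88 at Sox7. That sum was 0.415 at Sox17 and moves with how much was called. No share over all genes is given for the other windows or for the sum, so whether these counts are particular to the 10 genes was not tested. At Tfap2c the ratio was 1.42 within 10 kb and 0.651 at the summit matched to the highest in vehicle, an alternative added after the data were seen. At Hnf4a the ratio was between 1.76 and 2.08 under the alternatives of scaling, window and sum. No doxorubicin summit lay within 100 bp of its highest vehicle summit. The matched pair that holds its highest doxorubicin summit had a ratio of 2.39 (1.54 to 3.77). Of 93 recomputed counts 45 stayed within 1.5 times the reported value and 48 did not. With 8 to 9 fragments as the smallest summit listed, depth limits presence calls at Foxa2, Elf5, Cdx2, Sox7 and Sox17.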

Other observations

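The 5 genes without a p53 region in their windows differed in how far away the nearest one lay. At Sox7 it was 34.4 kb from the gene, with a fold enrichment of 7.92, at Foxa2 57.9 kb with 13.96 and at Elf5 58.2 kb with 25.5. At Sox17 it was 90.8 kb away and, with 78.0, stronger than any of the 5 regions in the windows of the other genes. At Cdx2 it was 295 kb away with 2.76. No relation between these sites and the genes was tested.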
